A study of Homo sapiens with 6 samples.

Results

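The plasminogen activators, their surface receptors and a group of serpin inhibitors were followed in T47D cells, a luminal-like human breast cancer line, under low oxygen. The genes were chosen by symbol: SERPINE2, SERPINB5, SERPINA1, SERPINI1, PLAU, PLAT, PLAUR, ANXA2 and S100A10. All 9 were present among the 27754 genes counted. RNA from adherent T47D cultures in RPMI medium with serum was compared between normoxia (20% O2) and hypoxia (0.5% O2 for 48 h, as the labels give it), with 3 libraries for each condition numbered 1 to 3. The study's text names another oxygen level for hypoxic cultures, and the level of the labels is used here. Both groups share the cell line and medium and differ only in oxygen as far as the labels say, but the labels give no culture time for normoxia. The study's text gives 48 h for both groups. The study's figure legend for this RNA-seq gives n = 3 and describes its data as independent experiments. The labels do not say whether the libraries came from separate cultures. The p-values measure the spread between these libraries, which may be technical as far as the labels say.

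Plasminogen is a circulating zymogen that is cut to plasmin, a broad serine protease that dissolves fibrin and degrades extracellular matrix. Urokinase (PLAU) and tissue-type activator (PLAT) make this cut, and the urokinase receptor (PLAUR) and the annexin A2-S100A10 complex hold the activator and plasminogen on the cell surface. Serpins are suicide inhibitors that trap serine proteases in an inactive complex, and in breast cancer this protease system has been studied mainly for invasion. These libraries report mRNA only, so neither protease activity nor inhibitor complexes were measured.

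The libraries held between 32989104 and 89883409 counts, with hypoxia replicate 3 the deepest, and 3 counts corresponded to 0.0334 to 0.0909 CPM (counts-per-million) of the raw library totals. All 10 luminal markers (ESR1, PGR, GATA3, FOXA1, XBP1, KRT8, KRT18, KRT19, EPCAM and CDH1) had over 3 counts in every library. Their summed level was 15612 to 19558 CPM in normoxia and 11200 to 14263 CPM in hypoxia. The 14 basal and mesenchymal line markers summed to 248 to 270 CPM in normoxia and 306 to 347 CPM in hypoxia, and KRT14 had at most 3 counts in any library. The 13 stromal, endothelial and immune markers summed to 95.6 to 108 CPM and 97.5 to 128 CPM. Over 3 counts were reached by 5, 3 and 7 of these 13 markers in normoxia replicates 1, 2 and 3. In hypoxia 6, 6 and 11 of them did so, the last in the deepest library. Lowest among them, DCN had at most 1 count, and PTPRC had 0 counts in normoxia and 1 to 5 in hypoxia. Replicate 3 of both conditions stood apart from replicates 1 and 2 in several mesenchymal markers, and values without 1 or both of these libraries are given for the results that rest on them. Since these are bulk libraries, a change in the number of expressing cells cannot be told apart from a change of RNA per cell.

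Of the 9 genes, 8 passed the filter on low counts and were tested. SERPINE2, SERPINB5, SERPINI1 and SERPINA1 rose in hypoxia at an adjusted p under 0.05, and 0 of the 8 fell. Over all 15657 tested genes, 59.5% passed this threshold, with 30.4% higher and 29.1% lower. The 4 called genes (50% of the 8) were thus near the background share of called genes, and this count does not set the 8 apart. Across all tested genes 51.1% of calls were higher, and this split became 64.5% with upper-quartile scaling, which raised the median log2-fold change by 0.16. With same-numbered libraries treated as blocks, 6 of the 8 genes were higher and 1 lower, against 36.6% and 35.2% of all tested genes (71.8% either way). Without both replicate 3 libraries 5 were higher (the serpins and PLAU) and 1 lower (ANXA2), in a fit that called 71.2% of all tested genes (36.4% higher and 34.8% lower). The remaining gene, PLAT, was too low to test. The levels of the 2 conditions did not overlap for 6 of the 8 genes, compared with 67.3% of all tested genes. Hypoxia was the higher condition in all 6, as it was for 34.9% of all tested genes.

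**Figure D1:**
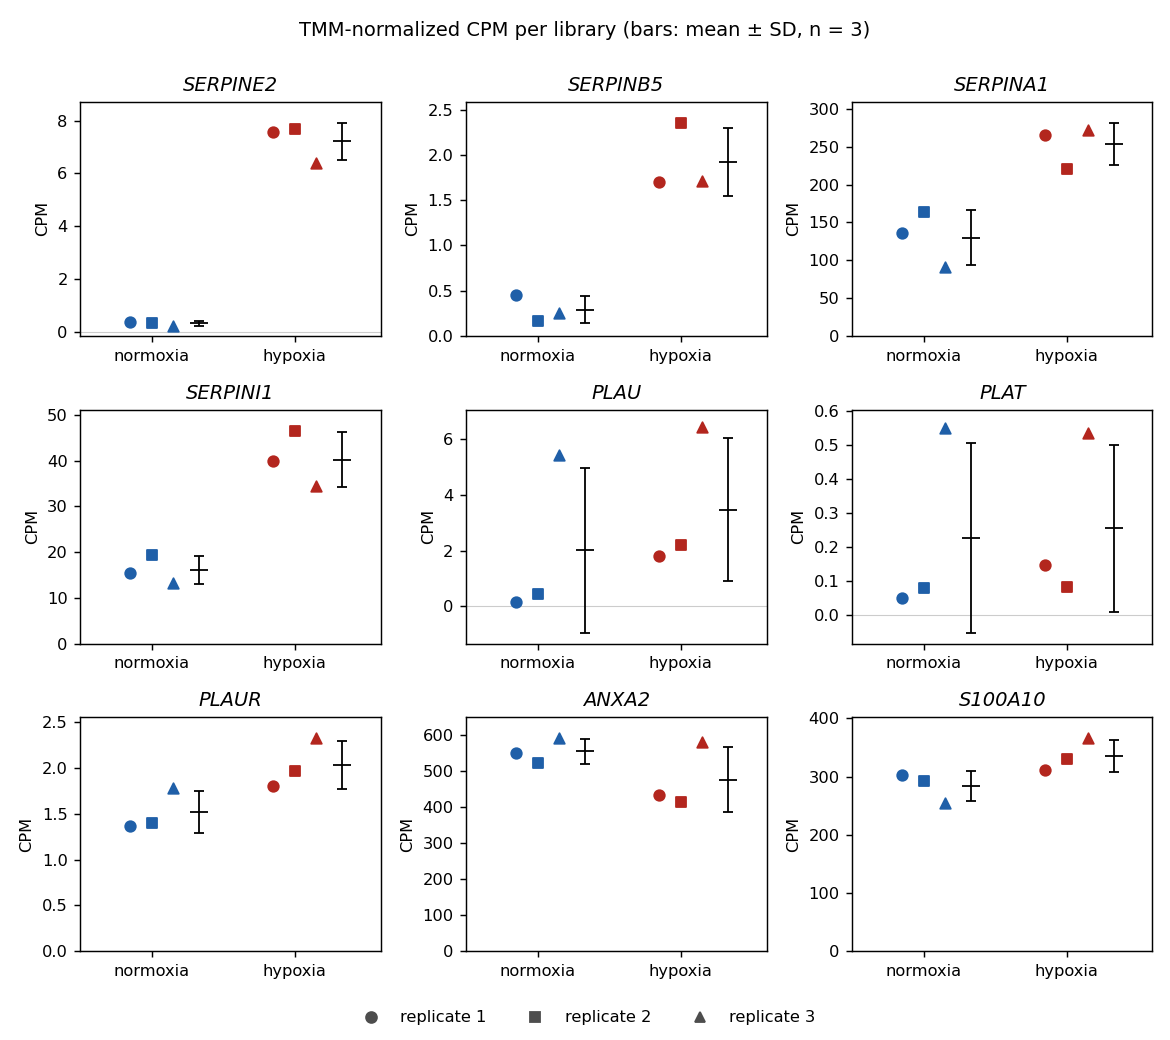
Level of each gene (CPM, linear axis) in normoxia and hypoxia, with a symbol for each library and the mean ± SD of 3 libraries beside them. The 4 serpins are higher in every hypoxia library than in any normoxia library, whereas PLAU and PLAT are highest in replicate 3 of both conditions.

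Per kilobase of counted exon, the genes covered a wide range of levels in normoxia. ANXA2 was at 306 ± 18.8 CPM per kilobase (SD, n = 3) and S100A10 at 269 ± 23.9, and these placed ANXA2 at rank 152 and S100A10 at rank 178 of all 27754 genes. SERPINA1 followed at 35.2 ± 9.96 CPM per kilobase and SERPINI1 at 8.10 ± 1.57. Each of these 4 was above the next in every library. PLAUR (0.753 ± 0.113 CPM per kilobase), PLAU (0.744 ± 1.1), SERPINB5 (0.111 ± 0.0571), SERPINE2 (0.104 ± 0.0267) and PLAT (0.0704 ± 0.0868) each overlapped their neighbour in this order.

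In hypoxia the order changed in its upper and lower parts. S100A10 (318 ± 26.2 CPM per kilobase) and ANXA2 (263 ± 49.7) overlapped, and SERPINA1 (68.7 ± 7.59) and SERPINI1 (20.2 ± 3.06) stayed apart from their neighbours. SERPINE2 moved from the eighth to the fifth place with 2.37 ± 0.232 CPM per kilobase, although its libraries overlapped those of PLAU (1.29 ± 0.949). PLAUR (1.01 ± 0.131 CPM per kilobase) was above SERPINB5 (0.729 ± 0.142), and PLAT was again the lowest (0.0793 ± 0.0762).

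SERPINE2 (protease nexin), a serpin that inhibits thrombin, urokinase and tissue-type activator, had the largest change among the 9 genes. Its counted exons lie on chromosome 2 (224839765 to 224904036, reverse strand, GRCh37). The normoxia libraries held 15, 13 and 7 SERPINE2 counts (replicates 1, 2 and 3), and the hypoxia libraries 306, 281 and 585. In CPM these were 0.380, 0.349 and 0.226 against 7.56, 7.68 and 6.40, so that the lowest hypoxia library was far above the highest normoxia library. SERPINE2 was 22.1-fold higher, a log2-fold change of 4.47 with a standard error of 0.23 (adjusted p = 3.08e-05, quasi-likelihood test of edgeR). Within same-numbered pairs the log2 ratios were 4.27, 4.41 and 4.72, and without both replicate 3 libraries the change was 4.38.

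SERPINB5 (maspin), a member of the family that does not act as a classical protease inhibitor and is known as a mammary epithelial tumor suppressor, was nearly silent in normoxia. It lies on chromosome 18 (61144144 to 61172318, forward strand). There were 18, 6 and 8 counts in normoxia and 69, 86 and 156 counts in hypoxia replicates 1, 2 and 3. This corresponded to 0.292 ± 0.150 CPM in normoxia and 1.92 ± 0.373 CPM in hypoxia (SD, n = 3). SERPINB5 rose by 2.68 on the log2 scale (standard error 0.37, adjusted p = 0.000644), with pair ratios of 1.87, 3.76 and 2.64. When libraries were left out the change ranged from 2.22 to 3.27, and the call held in each of these fits.

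SERPINI1 (neuroserpin), an inhibitor of tissue-type activator best known from neurons, showed the most even change. It lies on chromosome 3 (167453432 to 167543357, forward strand). The 3 normoxia libraries had 15.5, 19.5 and 13.3 CPM, and the hypoxia libraries 39.8, 46.5 and 34.4 CPM. The log2-fold change was 1.32 (standard error 0.16, adjusted p = 0.000440), or 2.49-fold, with pair ratios of 1.36, 1.26 and 1.37. Its cognate protease, PLAT, was at 0.0820 to 0.536 CPM in the same hypoxia libraries.

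SERPINA1 (antitrypsin), the main plasma inhibitor of neutrophil elastase, was the most abundant of the 4 serpins per kilobase in both conditions. It lies on chromosome 14 (94843084 to 94857029, reverse strand). Normoxia libraries had 135, 163 and 90.7 CPM, and hypoxia libraries 266, 221 and 272 CPM. The groups did not overlap, and the log2-fold change was 0.96 (standard error 0.20, adjusted p = 0.00411). The pairs differed among themselves, with log2 ratios of 0.97, 0.44 and 1.59, and the change without both replicate 3 libraries was 0.71 (adjusted p = 6.47e-06).

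Promoter sequence was examined for the core letters recognized by hypoxia-inducible factors, since the serpins moved in the same direction. Windows from 250 bases before to 50 bases after annotated start sites were taken from RefSeq (table build GRCh38.p14). The search covered 11 windows of 8 of the 9 genes, and the same bases were located in GRCh37 by exact match. PLAT was left out of this search. The motifs searched were ACGTG and GCGTG on both strands, where ACGTG is found on both strands at once inside the palindrome CACGTG. At least 1 motif was present in 8 of the 11 windows. Over 35116 RefSeq windows of this length, 48.4% held a motif, 21.4% held ACGTG, 36.5% held GCGTG and 7.26% held CACGTG. Both motifs contain the letters CG, and these shares were not matched for CG content. The median RefSeq window had 14 CG, and the windows of these genes had from 5 (PLAU, one window) to 32 (ANXA2 and S100A10). The following stretches are shown because they hold the motifs of the called serpins and, for comparison, of genes that were not called, with the motif in capitals on the strand of the gene (CACGC is GCGTG read on the other strand).

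SERPINE2, internal start site, chr2:224896265-224896293: tgatgctaggtcACGTGgtcacatgccct
SERPINE2, upstream start site, chr2:224903473-224903501: gcaccggggccgGCGTGgctcctgcccgg
SERPINB5, chr18:61144114-61144142: gggcggggcgggGCGTGgagctgggctgg
SERPINA1, chr14:94856971-94856999: atgcactgcctcCACGCagcaaccctcag
PLAU, chr10:75670765-75670793: gcgttgcggaagCACGCggggtccgggtc
ANXA2, chr15:60690354-60690382: ggggccgctcccGCGTGgcgcggctcggg
S100A10, chr1:151966441-151966469: agcgagggcaggGCGTGggccgcgcgccc

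The internal SERPINE2 stretch holds the palindrome, with the base before the capitals included, at position -87 from its start site. Both SERPINE2 stretches lie in introns of the gene as counted, whose exons extend further upstream. The SERPINB5, PLAU and ANXA2 stretches lie outside the counted gene, and those of SERPINA1 and S100A10 touch its counted exons. A further motif of SERPINB5, another of S100A10 and both of PLAUR are not shown. The motif letters were therefore present in front of called and uncalled genes alike. SERPINI1, which rose, had no match in its window. The downstream SERPINA1 window and the upstream window of PLAU, which was not called, had none either. A match is a description of letters and not a binding site.

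**Figure D2:**
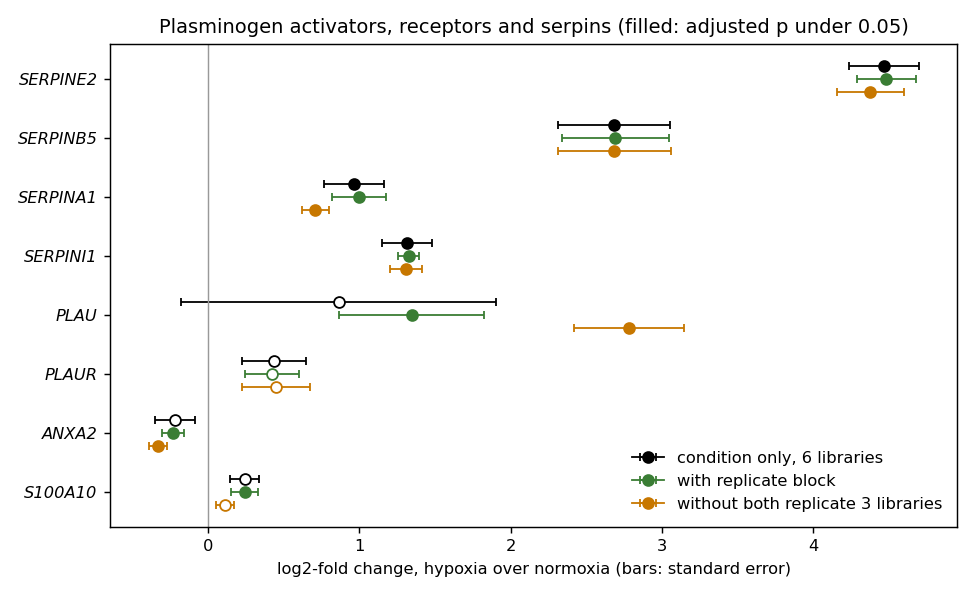
Log2-fold change of the 8 tested genes (points, with bars of 1 standard error) in the fit with condition only, with the replicate number as a block, and without both replicate 3 libraries. Filled points pass an adjusted p of 0.05, and PLAU moves from 0.86 to 2.78 between these fits while SERPINE2 stays between 4.38 and 4.48.

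PLAU, the urokinase gene (chromosome 10, 75670859 to 75677258, forward strand), differed most between libraries. Counts were 6 and 16 in the first pair of normoxia libraries but 168 in normoxia replicate 3, whereas hypoxia gave 73, 80 and 586. The corresponding levels were 0.152, 0.430 and 5.43 CPM in normoxia and 1.80, 2.19 and 6.41 CPM in hypoxia. Normoxia replicate 3 was above hypoxia replicates 1 and 2, so the conditions overlapped.

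With all 6 libraries, the PLAU log2-fold change was 0.86 (standard error 1.04, adjusted p = 0.497), which did not pass the threshold. The pair ratios were 3.46, 2.31 and 0.24 on the log2 scale, all toward hypoxia. Blocking on replicate number gave 1.35 (standard error 0.48, adjusted p = 0.0339). Without both replicate 3 libraries it was 2.78 (standard error 0.36, adjusted p = 8.74e-06), and without normoxia replicate 3 alone it was 3.61 (adjusted p = 0.00505). Without hypoxia replicate 3 alone the change was 0.034 (adjusted p = 0.981). PLAU shares 773 of its 2693 exon bases (28.7%) with C10orf55 on the other strand, which had 1 to 4 counts per library, and reads in the shared part may be lost from PLAU if counting ignored strand, which the sources used here do not state for these stranded libraries.

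PLAT, the tissue-type activator (chromosome 8, 42032236 to 42065242, reverse strand), was also highest in replicate 3 of both conditions, at lower counts. It had 2, 3 and 17 counts in normoxia and 6, 3 and 49 counts in hypoxia. Normoxia replicates 1 and 2 and hypoxia replicate 2 were at or under 3 counts, so a difference between the conditions was not detectable at this depth. In the replicate 3 libraries PLAT reached 0.549 CPM (normoxia) and 0.536 CPM (hypoxia).

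PLAUR, the membrane-anchored urokinase receptor (chromosome 19, 44150247 to 44174498, reverse strand), moved little. Its levels were 1.37, 1.4 and 1.78 CPM in normoxia and 1.80, 1.97 and 2.32 CPM in hypoxia. Although each hypoxia library was above all normoxia libraries, the gap between the groups was small. The difference of 0.43 on the log2 scale had a standard error of 0.21 and did not pass the threshold (adjusted p = 0.11). The block left it short too, with an adjusted p of 0.0624.

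The ratio of PLAU to PLAUR, taken within each library per exon length, was 0.0830, 0.230 and 2.28 in normoxia and 0.747, 0.830 and 2.06 in hypoxia. It was higher in hypoxia for replicates 1 and 2 and not for replicate 3. The difference of the log2 ratios was 1.63 (p = 0.400 in a two-sided exact permutation test, which cannot go below 0.1 with 3 libraries against 3). It was 2.97 without normoxia replicate 3, 1.16 without hypoxia replicate 3 and 0.58 without normoxia replicate 1.

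ANXA2 (chromosome 15, 60639350 to 60690185, reverse strand) encodes a calcium-dependent membrane-binding protein, and S100A10 (chromosome 1, 151955386 to 151966714, reverse strand) its small S100 partner that binds plasminogen. ANXA2 was at 551, 523 and 591 CPM in normoxia and 434, 415 and 580 CPM in hypoxia. Hypoxia replicates 1 and 2 were below all normoxia libraries and replicate 3 was not. The log2-fold change was -0.22 (standard error 0.13, adjusted p = 0.184) with all libraries, -0.23 with the block (adjusted p = 0.0187) and -0.33 without both replicate 3 libraries (adjusted p = 0.000147). Leaving out hypoxia replicate 3 alone gave -0.39 (adjusted p = 0.00434).

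S100A10 was at 303, 293 and 255 CPM in normoxia and 311, 331 and 366 CPM in hypoxia. The groups did not overlap, but hypoxia replicate 1 was only slightly above normoxia replicate 1. The log2-fold change was 0.24 (standard error 0.10, adjusted p = 0.0597), and it was 0.24 with the block (adjusted p = 0.0360). It was smaller, 0.11, without both replicate 3 libraries (adjusted p = 0.113).

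The ratio of ANXA2 to S100A10 per exon length needs no scaling between libraries. Normoxia libraries gave 1.06, 1.04 and 1.35, and hypoxia libraries 0.813, 0.731 and 0.924. All normoxia libraries were above 1 and all hypoxia libraries below 1. The ratio was 1.39-fold lower in hypoxia (p = 0.1 in the two-sided exact permutation test, the smallest this design allows), and it was lower in each of the 3 same-numbered pairs. The log2 difference of -0.48 was -0.36 without normoxia replicate 3 and -0.56 without hypoxia replicate 3. With the pairs as units the exact permutation p was 0.250, the smallest that 3 pairs allow.

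**Figure D3:**
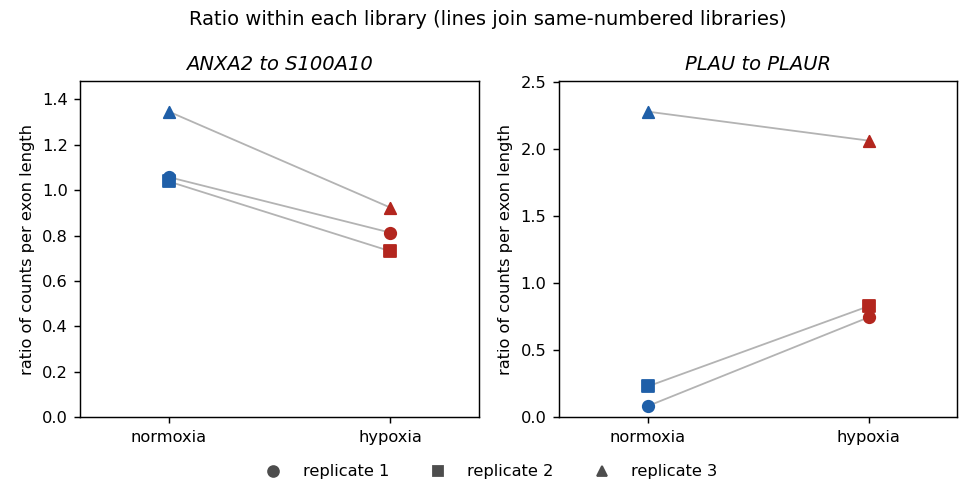
Ratio of counts per exon length within each library (linear axis from 0) for ANXA2 to S100A10 and for PLAU to PLAUR, with lines joining same-numbered libraries. The ANXA2 to S100A10 ratio falls along all 3 lines, whereas the PLAU to PLAUR ratio of replicate 3 is above 2 in both conditions.

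Reads of ANXA2 could also be shared with its processed pseudogenes. ANXA2P2 had 29, 29 and 67 counts in normoxia and 28, 30 and 260 counts in hypoxia, against 15197 to 52998 counts of ANXA2. ANXA2P1 and ANXA2P3 had at most 1 count in any library. ANXA2P2 was higher in replicate 3, by 2.86-fold over the mean of replicates 1 and 2 in normoxia and by 3.76-fold in hypoxia.

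The libraries numbered 3 were compared with the other two of each condition for the genes and markers above. PLAU was 18.7-fold higher in normoxia replicate 3 than the mean of replicates 1 and 2, and 3.21-fold higher in hypoxia replicate 3. For PLAT these values were 8.37 and 4.66, at few counts. SERPINE2, SERPINB5 and SERPINI1 showed no such rise, with values of 0.620 to 0.837 in normoxia and 0.796 to 0.842 in hypoxia. Of the 9 genes, PLAU, PLAT, PLAUR and ANXA2 were highest in replicate 3 in both conditions. The share of all genes with this pattern was not computed, so neither this count nor those of the markers below can be set against a background.

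Among the 14 basal and mesenchymal line markers, 7 were highest in replicate 3 in normoxia, 9 in hypoxia and 6 in both (VIM, CAV1, CAV2, MSN, GSTP1 and SPARC). The pattern was not limited to this list. Of the 13 stromal, endothelial and immune markers, 5 were highest in replicate 3 in both conditions (COL1A1, COL3A1, PECAM1, VWF and CDH5). Of the 10 luminal markers, 3 were (KRT8, KRT18 and KRT19). VIM, an intermediate filament gene of mesenchymal cells, was 51.1-fold higher in normoxia replicate 3 and 12-fold higher in hypoxia replicate 3 than the mean of replicates 1 and 2 of its condition. MSN and SPARC were 48.1-fold and 9.32-fold higher in normoxia replicate 3. CAV2 had 0 counts in replicates 1 and 2 of both conditions and 13 and 40 counts in the replicate 3 libraries. The part of these markers in the PLAU, PLAT and ANXA2 values was not tested.

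**Figure D4:**
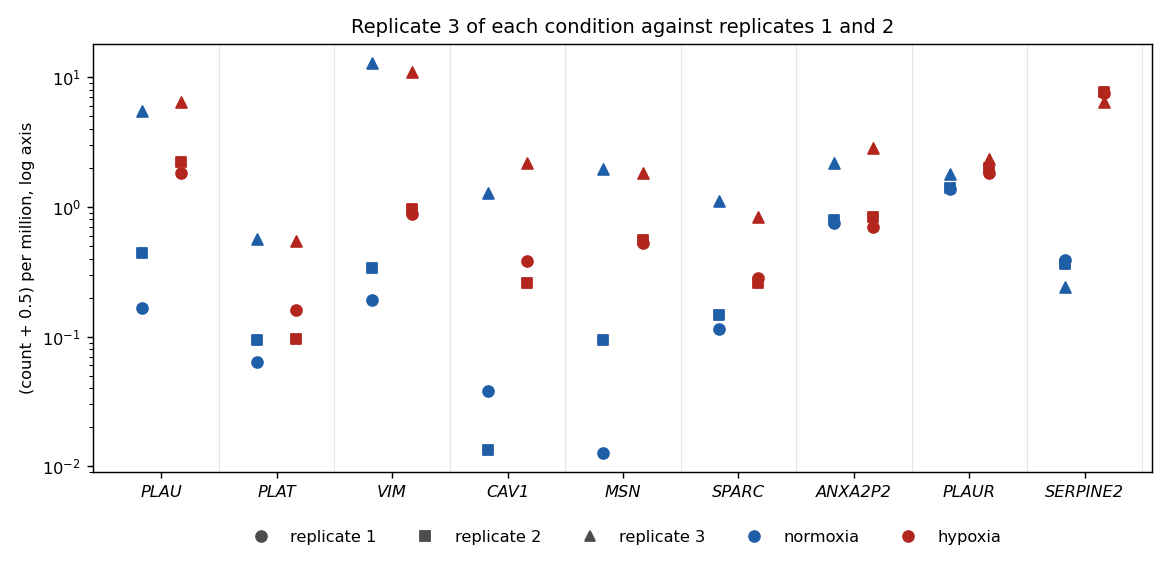
CPM after adding 0.5 counts (log axis) in each library for PLAU, PLAT, PLAUR, SERPINE2, the pseudogene ANXA2P2 and 4 mesenchymal markers, with normoxia in blue and hypoxia in red. Triangles (replicate 3) lie above the other symbols in both conditions for PLAU, PLAT, VIM, CAV1, MSN, SPARC, ANXA2P2 and PLAUR, but not for SERPINE2.

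Other serpins were counted from a list of 32 family members, of which 14 passed the filter on low counts. In hypoxia, 9 of these were higher, 1 was lower and 4 did not pass the threshold, with a median log2-fold change of 0.84 beside 0.028 over all tested genes. The called share was 71.4%, beside 59.5% of all tested genes (30.4% higher and 29.1% lower). The 18 untested serpins had at most 23 counts in any library. SERPINA3, an inhibitor of chymotrypsin-like proteases, rose from 2.01 ± 1.16 to 19.1 ± 3.45 CPM (log2-fold change 3.23). SERPINB1, an intracellular inhibitor of neutrophil proteases, went from 8.08 ± 0.506 to 10.9 ± 1.08 CPM (adjusted p = 0.0183). The adjusted p of SERPINB1 became 0.0829 without normoxia replicate 1 and 0.0857 without hypoxia replicate 1. It was 0.286 without both libraries numbered 1 and 0.0778 without both numbered 2. SERPINA6, which carries corticosteroids in plasma and inhibits no protease, fell from 1341 ± 172 to 781 ± 47.7 CPM (log2-fold change -0.78, adjusted p = 0.000743).

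Plasminogen itself (PLG) had 0 counts in all 6 libraries, which allows up to 3 counts or 0.0334 to 0.0909 CPM per library. Of 13 genes of plasminogen and its other partners, 6 were tested, 4 were higher and 1 was lower, with a median log2-fold change of 0.69. This was 83.3% called of only 6 genes, beside 59.5% of all tested genes. ENO1, a glycolytic enzyme that binds plasminogen at the cell surface, rose from 1697 ± 220 to 2715 ± 250 CPM. AHNAK, a scaffold of the annexin A2-S100A10 complex, rose from 2154 ± 300.0 to 3493 ± 390 CPM. PLGRKT, a plasminogen receptor that spans the membrane, fell from 23.1 ± 2.26 to 12.9 ± 2.11 CPM (log2-fold change -0.84, adjusted p = 0.00158).

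The list of urokinase receptor partners and clearance receptors held 20 genes, of which 16 were tested. In hypoxia 12 were higher and 2 lower (87.5% called, beside 59.5% of all tested genes), and the median log2-fold change was 1.52. LRP1, the endocytic receptor that removes protease-serpin complexes, had 316, 365 and 108 counts in normoxia and 2290, 2348 and 4592 counts in hypoxia. Its log2-fold change was 2.99 (standard error 0.32, adjusted p = 0.000229).

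VLDLR, a related endocytic receptor, rose from 3.25 ± 1.34 to 27.9 ± 0.361 CPM. MRC2, a collagen receptor that associates with the urokinase receptor, rose from 0.566 ± 0.127 to 5.85 ± 0.285 CPM. ITGB6, an integrin subunit, rose from 1.51 ± 0.318 to 17.7 ± 6.80 CPM. In the other direction, LRP8 fell from 34.3 ± 5.07 to 16.7 ± 4.26 CPM and ITGB5 from 111 ± 1.28 to 71.6 ± 18.6 CPM. The ITGB5 call was lost without both libraries numbered 1 (adjusted p = 0.0942) and without both numbered 2 (adjusted p = 0.0599).

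Proteases that activate pro-urokinase or are targets of serpins made up a further list of 20 genes. Of 12 tested, 6 were higher and 0 lower, with a median log2-fold change of 0.62, and the block gave 8 higher and 1 lower. The called share of 50% was near the 59.5% of all tested genes, and the block called 71.8% of all tested genes. CTSL, a lysosomal cysteine protease, rose from 10.4 ± 0.740 to 24.3 ± 2.30 CPM (log2-fold change 1.23, adjusted p = 0.000142). HPN, a membrane serine protease, went from 19.3 ± 6.75 to 31.7 ± 4.54 CPM (adjusted p = 0.0370). The HPN call was lost without normoxia replicate 1 (0.0700), hypoxia replicate 1 (0.0933), hypoxia replicate 2 (0.106) or both libraries numbered 1 (0.137). PRSS8, an epithelial membrane serine protease, went from 68.4 ± 4.14 to 98.7 ± 10.0 CPM (adjusted p = 0.00230, and 0.0509 without both libraries numbered 1).

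The relatives of ANXA2 and S100A10 moved in both directions. Of 8 annexins tested from a list of 13, 2 were higher and 4 lower (75% called, beside 59.5% of all tested genes), with a median log2-fold change of -0.24. ANXA1, a phospholipid-binding protein linked to resolution of inflammation, rose from 2.16 ± 0.990 to 26.7 ± 4.58 CPM, and ANXA3 rose from 4.56 ± 1.95 to 14.9 ± 4.70 CPM. ANXA6 fell from 319 ± 18.2 to 137 ± 13.4 CPM, ANXA9 from 130 ± 4.84 to 42.8 ± 4.73 CPM and ANXA7 from 205 ± 3.61 to 134 ± 4.4 CPM.

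Of 12 other S100 genes tested, 6 were higher and 3 lower (75% called, beside 59.5% of all tested genes), with a median log2-fold change of 0.90. The calcium-binding proteins S100A6, S100P and S100A4 rose by log2-fold changes of 2.03, 2.49 and 1.52. S100A6 went from 136 ± 15.8 to 556 ± 77.6 CPM. S100A16 (log2-fold change -0.90) and S100A13 (-0.50) fell, and without both libraries numbered 1 their changes of -0.88 and -0.40 no longer passed the threshold (adjusted p = 0.0519 and 0.0764). S100A11 was at 340 ± 13 and 280 ± 27.0 CPM, and its log2-fold change of -0.28 (adjusted p = 0.0259) became -0.12 (adjusted p = 0.209) with upper-quartile scaling. The S100A11 call was also lost without normoxia replicate 1 (0.0578), normoxia replicate 3 (0.0515), hypoxia replicate 1 (0.0829), hypoxia replicate 2 (0.0928), both libraries numbered 1 (0.196) or both numbered 2 (0.150), with changes of -0.30 to -0.22.

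For the 3 genes with the largest changes, the genes with the most similar profile over the 6 libraries were sought among the 12665 tested genes that averaged 100 or more counts. Likeness was the root mean square difference of centred log2 CPM. Nearest to SERPINE2 were CLGN (0.158), an endoplasmic reticulum chaperone, VEGFA (0.193), the angiogenic growth factor known as a hypoxia target, and DHRS2 (0.226), a short-chain dehydrogenase. Nearest to SERPINB5 were LRRC8C (0.244), ANKRD31 (0.271) and RIMKLA (0.304). Nearest to SERPINI1 were PRKAR2A-AS1 (0.0280), H6PD (0.0654) and LINC00174 (0.0662), where the antisense gene PRKAR2A-AS1 is uncertain because the strand setting of the counting is not stated. These likenesses describe 6 libraries in 2 groups, and most of the shared pattern is the difference between the groups.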

How the data were processed

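T47D RNA-seq libraries (mRNA, stranded preparation per the labels) were aligned to GRCh37 (hg19) with STAR 2.5.2a after FastQC 0.11.5, and reads per RefSeq gene were counted with featureCounts 1.5.1, as the submitters' processing notes list them. The authors deposited raw counts for 27754 genes per library, without normalization. Here, counts were scaled by TMM and tested in edgeR 4.0.16 (R 4.3.3) by the quasi-likelihood test with condition as the only term, after filterByExpr (minimum count 10, minimum total 15), with Benjamini-Hochberg adjustment over 15657 genes at 0.05. CPM are TMM-scaled. Fold changes are hypoxia over normoxia, and depth sets the precision as given with the totals (counting error only). Same-numbered libraries deviated together from their group means (correlations 0.300, 0.390 and 0.545). Replicate 3 stood apart in both conditions, and this alone can make the deviations of replicates 1 and 2 run together. Differently numbered libraries were not compared, so the correlations do not show that the numbers pair the libraries. The study's methods call the hypoxia and normoxia samples paired, but name the edgeR exact test without a block term. The labels give only replicate numbers and do not say which libraries form a pair. The block was therefore kept as an alternative, and its fit is given where it changes a call, as for PLAU, ANXA2 and S100A10. Ratios were tested by exact permutation. Alternatives were the edgeR exact test, DESeq2 1.42.0, RLE and upper-quartile scaling, no filter, the block and leaving out libraries.

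The genes and lists were chosen with earlier results of these data known. Named beside the 9 genes were PLG, LRP1 and, per list, up to 3 called genes each way with the largest change and a mean of at least 100 counts, and also genes sharing exon bases with a member, the ANXA2 pseudogenes, and markers that bear on a library that stands apart. A gene that this rule also names is not reported here, although it is among the list counts.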

Additional observations from a re-analysis of the deposited data

How the results depend on the processing

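The 4 serpin calls held in all 15 alternatives each, with log2-fold changes of 4.29 to 4.62 for SERPINE2, 2.22 to 3.27 for SERPINB5, 1.20 to 1.47 for SERPINI1 and 0.71 to 1.25 for SERPINA1. With the replicate number as a block, 7 of the tested plasminogen genes were called and 1 of them was lower: PLAU (1.35), ANXA2 (-0.23) and S100A10 (0.24) were added, and no other of these genes changed its call. Upper-quartile scaling, which moved the median of all genes by 0.16, called PLAUR (0.59) and S100A10 (0.40). When libraries were left out, PLAU ranged from 0.034 to 3.61, ANXA2 from -0.39 to -0.13, and the number of these genes called lower from 0 to 1. Other S100 genes called ranged from 5 to 10, and all genes called from 4839 to 11257 (2648 to 5751 higher, 2191 to 5506 lower), with the lowest counts without both libraries numbered 1. The causes were not tested. DESeq2 gave no adjusted p for PLAU. PLAT could be tested in 7 alternatives, with log2-fold changes of -0.087 to 0.78 and adjusted p of 0.512 to 0.991. No direction reversed for the 8 tested plasminogen genes in these alternatives. The log2 difference of the PLAU to PLAUR ratio ranged from 0.58 to 2.97. With 3 libraries a condition, exact tests of the ratios could not pass 0.05, and counts of 18 or fewer in normoxia limit SERPINE2, SERPINB5 and PLAT.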
